A study of Homo sapiens with 12 samples.

Results

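The Fanconi anemia genes followed here are 10 genes chosen by name. The products of FANCA, FANCC, FANCE, FANCF, FANCG, FANCL, FANCM and UBE2T act in the step that attaches ubiquitin. Of these, FANCL is the ligase and UBE2T the conjugating enzyme. FANCD2 and FANCI are the pair that receives the ubiquitin. Each of the 10 has 1 row of that exact name among the 23621 gene rows of the expression tables. All 10 were among the 14251 genes with more than 1 FPKM (fragments per transcript length and per mapped library size) in at least 1 of the 12 libraries, which are called active genes below. The rule goes by name alone and applies no threshold on a measured value, but the genes were picked with earlier results of these data known.

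The libraries came from KURAMOCHI (Ku) and COV362 (Cov), human ovarian cancer cell lines that had not been transduced, grown in RPMI and DMEM, respectively, with serum. In each line, 2 replicate libraries were made from cells given DMSO, the vehicle, 2 from cells given 50 nM THZ1, and 2 from cells given 250 nM THZ1, all for 6 hr. THZ1 is a covalent inhibitor of CDK7, CDK12 and CDK13, kinases that act on RNA polymerase II, so comparing the doses with DMSO asks how the level of each transcript stood after these kinases had been inhibited for a few hours. Each line stands for a single tumor, and the tables of the lines were normalized apart, so no difference between Ku and Cov was tested.

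The Fanconi anemia pathway repairs DNA crosslinks that tie both strands of the helix together and block replication forks. FANCM finds the stalled fork and anchors a core complex there, in which FANCL is the ubiquitin ligase and UBE2T its partner ubiquitin-conjugating enzyme. The ligase marks FANCD2 and FANCI with ubiquitin, which clamps the pair onto DNA and calls in nucleases, translesion polymerases and the recombination proteins that are often lost in ovarian cancer. CDK12 is known for sustaining transcription of long DNA repair genes, which is background to these data and was not tested by them.

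The genes differ widely in structure. In the GENCODE annotation of GRCh37, the build the authors aligned to (hg19), FANCF lies at chr11:22644079-22647369 on the minus strand and has a single exon. FANCA, at chr16:89793091-89883385 on the minus strand, has 43 exons in its canonical transcript, and FANCD2, at chr3:10068054-10143616 on the plus strand, has 44. FANCI (chr15:89787176-89860492, plus) has 38 exons, FANCM (chr14:45605133-45670093, plus) 23, FANCC (chr9:97861336-98189078, minus) 15, FANCG (chr9:35073832-35080001, minus) 14, FANCL (chr2:58386378-58468545, minus) 14, FANCE (chr6:35420115-35434881, plus) 10 and UBE2T (chr1:202300672-202311112, minus) 7. All values below are summed over a gene's whole transcript and do not separate exons or isoforms.

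The promoters of 3 members are shown because these genes lie at the ends of the response: FANCF, whose transcript had the smallest share of its DMSO level left, FANCA, the member whose mean was not below that of DMSO at 50 nM, and FANCD2, the least lowered at 250 nM in Ku cells. Each is the 250 bases before the RefSeq gene start in GRCh38.p14, written 5′ to 3′ on the gene's own strand, at chr11:22625824-22626073 (minus) for FANCF, chr16:89816648-89816897 (minus) for FANCA and chr3:10026187-10026436 (plus) for FANCD2. Capitals mark the letters of motifs that were searched on both strands.
FANCF: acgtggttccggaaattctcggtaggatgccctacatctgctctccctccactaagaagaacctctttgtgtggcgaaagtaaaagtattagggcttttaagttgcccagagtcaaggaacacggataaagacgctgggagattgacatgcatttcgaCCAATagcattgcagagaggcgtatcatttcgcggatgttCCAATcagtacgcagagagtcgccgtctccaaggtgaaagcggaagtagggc
FANCA: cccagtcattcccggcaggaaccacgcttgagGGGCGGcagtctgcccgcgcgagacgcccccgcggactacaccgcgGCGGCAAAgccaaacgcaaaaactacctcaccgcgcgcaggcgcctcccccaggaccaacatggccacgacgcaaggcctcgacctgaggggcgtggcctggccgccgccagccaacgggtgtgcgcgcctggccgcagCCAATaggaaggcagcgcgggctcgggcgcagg
FANCD2: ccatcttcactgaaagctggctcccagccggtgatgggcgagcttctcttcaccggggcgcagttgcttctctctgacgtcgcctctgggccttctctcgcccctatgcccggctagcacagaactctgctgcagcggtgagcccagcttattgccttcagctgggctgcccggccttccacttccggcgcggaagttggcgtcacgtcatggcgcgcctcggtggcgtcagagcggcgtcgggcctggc

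The FANCF window held 2 CCAAT boxes (CCAAT), the FANCA window held a CCAAT box, a GC box (GGGCGG) and an E2F motif (TTTCCCGC, TTTCGCGC, TTTGCCGC or TTTGGCGC), and the FANCD2 window held none of the motifs searched. RefSeq windows were matched to 9 members, and FANCI is named only. A CCAAT box was present in 4 of these 9 members and in 32% of all 35116 windows of this length, a GC box in 6 of 9 and in 42.6%, and an E2F motif in 2 of 9 and in 2.79%. The cell cycle homology element (CHR, TTTGAA or TTCGAA) was present in 2 of 9 and in 14.3%, and a TATA box (TATAAA) in 0 of 9 and in 10.7%. These are matches of letters, and no binding was measured. The G and C content of the members' windows ran from 46.4% in FANCM to 78% in 1 of the 2 windows of FANCC, around a median of 58% over all windows.

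The data as a whole were as follows. Values were FPKM that the authors normalized to ERCC spike-in RNAs mixed into RNA from counted cells, so that a level is relative to an equal number of cells, and less of a transcript in every cell cannot be told apart from its loss in some of them. Pearson's r between replicate libraries over active genes was 0.968 to 0.983 on the log2 scale. The spike-ins above 1 FPKM in each library, 53 in Ku and 48 in Cov, had median deviations between -0.0058 and 0.0451 log2 units. The values had been normalized to these same spike-ins, so small deviations follow from that step and are no check of the scale. On this scale the median active gene in Ku cells had a log2 fold change of -0.40 with 50 nM and -1.11 with 250 nM, and in Cov cells of -0.85 and -1.31. Of 8 markers of ovarian and other epithelium, 7 were above 1 FPKM in every library of each line, the exceptions being MUC16 in Ku and WT1 in Cov. The leukocyte markers stayed below 1 FPKM in every library for 3 of 4 in Ku and 4 of 4 in Cov, while the endothelial gene CDH5 was above 1 FPKM in all libraries of both lines, and VWF and COL3A1 in all of Ku. The summed level of the 3 endothelial markers was 10.3 to 11.8 FPKM with DMSO and 6.74 to 6.92 FPKM with 250 nM in Ku, and 8.43 to 8.95 and 3.44 to 3.63 FPKM in Cov, and that of the 3 fibroblast markers was 10.5 to 12.3 and 6.15 to 6.22 FPKM in Ku and 3.95 to 4.23 and 1.55 to 1.62 FPKM in Cov. The sum of the 8 epithelial markers was lower with 250 nM too, from 4714 to 4960 FPKM with DMSO to 2313 to 2427 FPKM in Ku, and from 3475 to 3883 FPKM to 1744 to 2025 FPKM in Cov. The part of transcripts of other cell types in the results was not tested. No read counts are in the tables, so depth is unknown. With 2 libraries a group, the smallest p of an exact two-sided permutation test of 1 group against another is 0.33. A log2 fold change is the mean of log2(FPKM + 1) in one group minus that in the other, which understates the change of low genes. Each was tested with limma and adjusted by Benjamini-Hochberg over the 14251 active genes, and a call needed an adjusted p under 0.001 together with a log2 fold change beyond 0.5.

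In DMSO, UBE2T had the highest level of the 10 genes in both lines, with 118 FPKM in Ku and 188 FPKM in Cov (means of 2 libraries), above 92.6% and 94.5% of active genes. FANCI (50.2 and 85.2 FPKM) and FANCL (45.7 and 61.4 FPKM) followed. FANCG (24.6 and 18.8 FPKM), FANCD2 (16.9 and 20.7 FPKM), FANCA (10.9 and 20.4 FPKM), FANCE (9.1 and 16.4 FPKM) and FANCC (7.47 and 14.3 FPKM) lay in the middle. FANCF (6.85 and 4.89 FPKM) and FANCM (3.53 and 2.58 FPKM) had the lowest levels in both lines. Neighbours in this order had libraries that did not overlap, except FANCI and FANCL, and FANCC and FANCF, in Ku cells, and FANCD2 and FANCA in Cov cells. The range from FANCM to UBE2T is a range of levels per transcript length, since FPKM is divided by length.

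**Figure D1:**
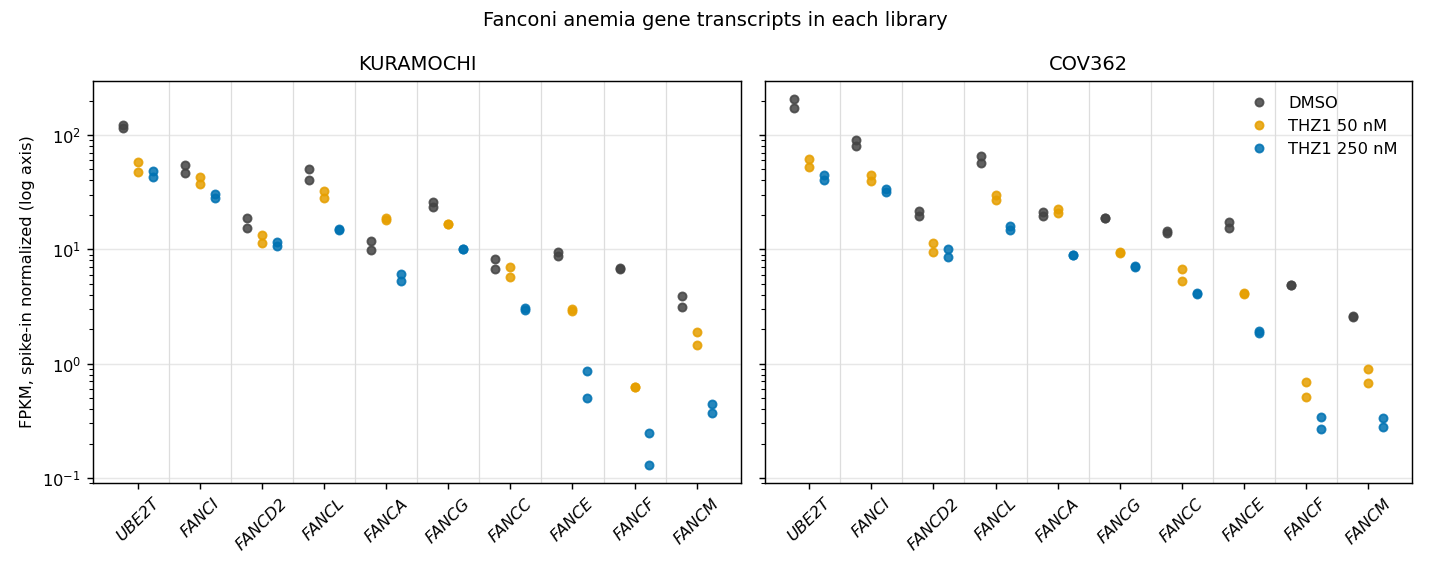
FPKM of the 10 transcripts (log axis) in each of the 6 libraries of KURAMOCHI, left, and COV362, right, with 1 point for each library and colors for DMSO, 50 nM and 250 nM THZ1. Points for 250 nM lie below those for DMSO in all 10 genes on this spike-in scale, FANCA at 50 nM lies above DMSO in KURAMOCHI, and FANCF is below 1 FPKM in all treated libraries.

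With 250 nM THZ1, the levels of the 10 transcripts were lower than with DMSO in both lines on the spike-in scale. In Ku cells 9 were called lower and 0 higher, all but FANCD2, where 68.6% of active genes were called lower and 0.0491% higher. In Cov cells 10 of 10 were called lower, where 84% of active genes were and 0.105% were called higher. At an unadjusted p under 0.05 limma gave 0 members higher in either line. The libraries of the groups did not overlap for any member in either line, which was so in the lower direction for 95.9% of active genes in Ku and 95.6% in Cov. The members' median log2 fold change was -1.28 in Ku, against -1.11 over active genes, and -1.52 in Cov, against -1.31. The share of members called was above that of active genes in both lines, but 10 genes are too few to set the members apart from those shares. Among the members the part of the DMSO level left ranged from 65.7% for FANCD2 to 2.75% for FANCF in Ku, and from 44.9% for FANCD2 to 6.24% for FANCF in Cov. Leaving out 1 library in turn gave 6 or 7 members called lower in Ku, where FANCA and FANCC lost their call whichever library was left out, and 9 or 10 in Cov.

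With 50 nM THZ1 the lines' counts were further apart. In Ku cells FANCE, FANCF and UBE2T were called lower, 3 of 10 members, and 0 were called higher (1, FANCA, at an unadjusted p under 0.05), against 11.3% of active genes called lower and 0.0842% called higher. In Cov cells 9 of 10 members were called lower, all but FANCA, against 70.5% of active genes called lower and 0.0772% called higher. Both 50 nM libraries were below both DMSO libraries for 8 members in Ku and 9 in Cov, beside 75.8% and 95.7% of active genes, and above them for 1 in Ku, FANCA, beside 3.45%. The members' median log2 fold change was -0.55 in Ku and -1.05 in Cov, beside -0.40 and -0.85 for active genes. The 3 calls in Ku are fragile: with 1 library left out, 0 or 1 was made, and 0 were made when only the DMSO and 50 nM libraries were fitted. Leaving out 1 library left 7 to 9 calls in Cov.

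From 50 nM to 250 nM, FANCA, FANCE, FANCG and FANCL were called lower in Ku cells, 4 of 10 members where 36% of active genes were, and 0 higher, where 0.0421% of active genes were. In Cov cells FANCA, FANCE and FANCL were called lower, 3 of 10 where 24.4% of active genes were, and 0 higher, where 0.0842% were. The libraries of the doses did not overlap, in the lower direction, for 8 members in Ku and 9 in Cov, as for 87.7% and 75.6% of active genes. The median over members was -0.78 in Ku and -0.43 in Cov, against -0.62 and -0.41 over active genes. Without either 50 nM or either 250 nM library the count in Ku was 0, and in Cov the count ranged from 1 to 3 with 1 library left out.

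Direction depends on the scale for most of these genes, since the median active gene itself moved. When libraries were instead scaled by the median of ratios over their own genes, which brings the median active gene to about no change, or to an equal median FPKM, FANCE, FANCF and FANCM were still lower than in DMSO at both doses in both lines, and each of the other 7 members was reversed in at least 1 of these comparisons. Under the median of ratios, at 50 nM in Ku 1 member was called lower, FANCF, and 1 higher, FANCA, beside 2.5% and 0.526% of active genes. At 250 nM in Ku 3 were called lower (FANCE, FANCF and FANCM) and 2 higher (FANCD2 and FANCI), beside 19.3% and 11.4%. In Cov FANCA was called higher at 50 nM and 0 members lower, beside 0.112% and 0.568%, and at 250 nM FANCE, FANCF and FANCM were called lower and 0 higher, beside 18.9% and 8.73%. From 50 to 250 nM FANCD2 was called higher in Ku and FANCA lower in Cov, beside 1.57% and 8.26% of active genes, where 11.5% and 0.519% were called in the opposite direction.

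Under equal medians, 0 members were called at 50 nM in Ku (0.547% of active genes lower and 0.0982% higher), and in Cov 1 was called higher, FANCA, and 0 lower (0.0912% and 0.133%). At 250 nM FANCE, FANCF and FANCM were lower and FANCA, FANCD2, FANCG and FANCI higher in Ku, where 11.8% of active genes were called lower and 27.5% higher. In Cov FANCE and FANCF were lower and the same 4 genes higher, where 11.4% and 26.7% were. From 50 to 250 nM FANCD2 was called higher in Ku, where 7.27% of active genes were called higher and 6.83% lower, and 0 members were called in Cov, where 3.42% and 5.27% were. Equal medians left the median active gene above 0 against DMSO, at 0.12 (50 nM) and 0.34 (250 nM) in Ku and 0.15 and 0.38 in Cov. From 50 to 250 nM it stood at 0.29 in Ku and 0.25 in Cov. Values under equal medians are thus not centred on the median active gene. Changes below are on the spike-in scale unless a scaling is named.

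**Figure D2:**
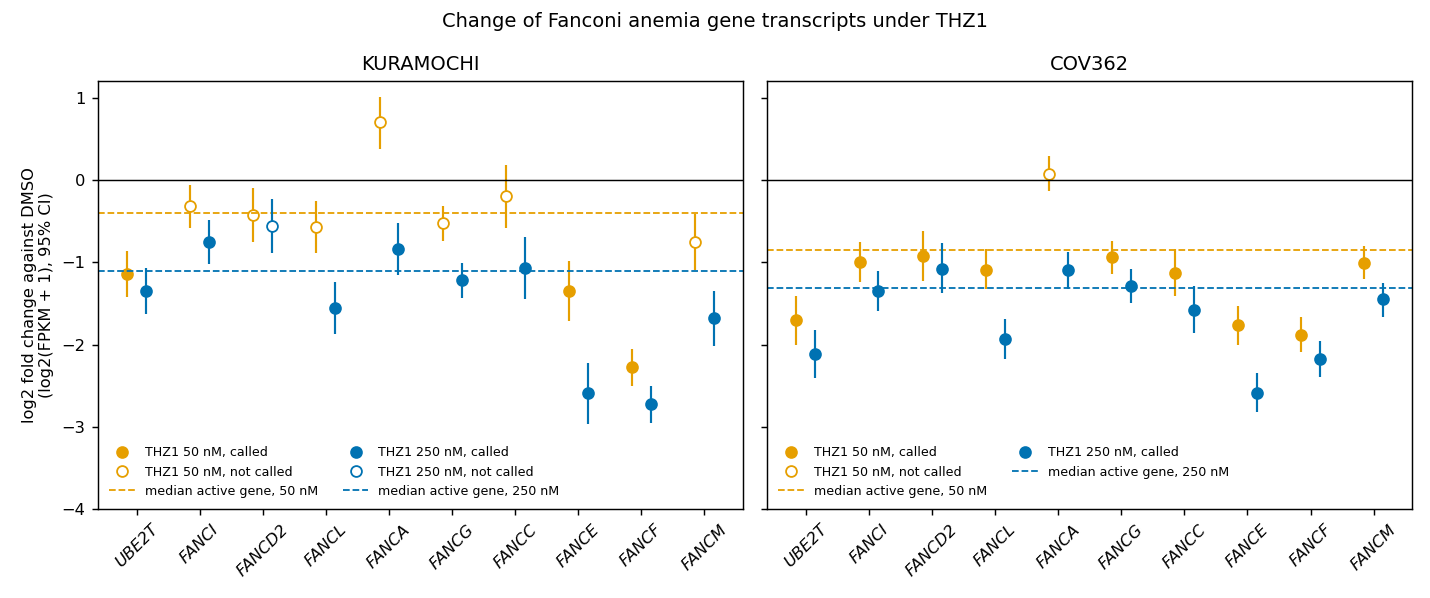
Log2 fold change of log2(FPKM + 1) against DMSO for the 10 genes at 50 nM and 250 nM THZ1, with 95% confidence intervals from limma, in KURAMOCHI (left) and COV362 (right). Filled points passed the call, open points did not, and dashed lines mark the median active gene at each dose, on the spike-in scale. FANCE and FANCF lie far below these lines, and FANCA at 50 nM lies above them by 1.10 and 0.93.

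FANCF, an adaptor subunit that joins the parts of the core complex, kept the smallest share of its DMSO level. In Ku cells its level was 6.91 and 6.79 FPKM with DMSO, 0.625 and 0.624 FPKM with 50 nM, and 0.13 and 0.247 FPKM with 250 nM. Its level in Cov cells was 4.89 and 4.89 FPKM with DMSO, 0.513 and 0.694 FPKM with 50 nM, and 0.269 and 0.342 FPKM with 250 nM. All treated libraries lay far below the DMSO libraries and below 1 FPKM, with the 250 nM libraries lowest. The mean at 50 nM was 9.12% of DMSO in Ku and 12.3% in Cov, and at 250 nM it was 2.75% and 6.24%.

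The log2 fold change of FANCF was -2.27 (SE 0.0923, adjusted p = 2.23e-04, limma) at 50 nM and -2.72 (SE 0.0923, adjusted p = 6.93e-06) at 250 nM in Ku. The values in Cov were -1.88 (SE 0.0888, adjusted p = 2.13e-05) and -2.17 (SE 0.0888, adjusted p = 9.96e-07). At 50 nM in Ku only 132 active genes had a lower log2 fold change, and in Cov 405. The call at 50 nM in Ku was lost without either of the 50 nM or of the 250 nM libraries, with adjusted p between 0.00128 and 0.00228. At 250 nM FANCF was called lower under every scaling in both lines, with log2 fold changes of -2.38 and -1.61 under the median of ratios and -2.19 and -1.37 under equal medians. The tables hold no zeros, and in each library at least 4896 (Cov) or 5276 (Ku) genes share 1 low value. FANCF at 250 nM was 1.66 to 3.25 times that value, so its level there is close to the lowest the tables can show. The opposite-strand gene GAS2, which overlaps 315 bases of the FANCF exon, had at most 0.28 FPKM in any library.

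FANCE, the core complex subunit that contacts FANCD2, also fell steeply and in steps with dose. Its levels in Ku cells were 9.43 and 8.76 FPKM with DMSO, 2.9 and 2.99 FPKM with 50 nM, and 0.497 and 0.866 FPKM with 250 nM. Those in Cov cells were 15.5 and 17.2, 4.07 and 4.16, and 1.92 and 1.84 FPKM. No libraries of different doses overlapped in either line. At 50 nM its log2 fold change was -1.35 (SE 0.148, adjusted p = 9.64e-04, limma) in Ku, a call lost with any 1 library left out (highest adjusted p = 0.00736), and -1.76 (SE 0.0988, adjusted p = 2.16e-05) in Cov. At 250 nM it kept 7.49% of its DMSO level in Ku and 11.5% in Cov, and its log2 fold change was -2.59 in both (SE 0.148 and 0.0988, adjusted p = 1.85e-05 and 9.23e-07, limma). From 50 to 250 nM it changed by -1.24 in Ku (adjusted p = 5.84e-04) and -0.83 in Cov (adjusted p = 4.40e-04). The call from 50 to 250 nM was lost in Ku with any 1 library left out (highest adjusted p = 0.00525), and in Cov without either DMSO or either 250 nM library (highest adjusted p = 0.00349). Like FANCF, it was called lower at 250 nM under the median of ratios (-1.84 in Ku and -1.36 in Cov) and under equal medians (-1.48 and -0.96).

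FANCM, the DNA translocase that anchors the complex, had the lowest DMSO level and fell below 1 FPKM at 250 nM. In Ku cells it went from 3.94 and 3.12 FPKM with DMSO to 1.9 and 1.45 FPKM with 50 nM and 0.37 and 0.44 FPKM with 250 nM. In Cov cells it went from 2.58 and 2.59 FPKM to 0.672 and 0.9 FPKM and then to 0.281 and 0.333 FPKM. The share left at 250 nM was 11.5% in Ku and 11.9% in Cov, with no overlap between doses. That of FANCE was 7.49% and 11.5%. The commonest value in the 250 nM libraries of Cov was 0.0943 and 0.105 FPKM. FANCM was thus close there to the lowest level that can be shown, which limits how far its share could fall. Its log2 fold change at 50 nM was -0.76 (adjusted p = 0.00522, limma) in Ku, not called, and -1.01 (adjusted p = 4.90e-05) in Cov. Its log2 fold change at 250 nM was -1.68 (SE 0.136, adjusted p = 5.90e-05, limma) in Ku and -1.45 (SE 0.0874, adjusted p = 3.28e-06) in Cov. Under the median of ratios it was -1.09 and -0.89, both called, and under equal medians -0.80, called, and -0.64, not called (adjusted p = 0.00249).

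FANCC, which binds FANCE and FANCF in the complex, fell less. Its levels were 8.22 and 6.71 FPKM with DMSO, 7 and 5.75 FPKM with 50 nM and 3.08 and 2.96 FPKM with 250 nM in Ku cells, and 14 and 14.5, 5.31 and 6.71, and 4.06 and 4.17 FPKM in Cov cells. The 50 nM libraries overlapped those of DMSO in Ku and lay below them in Cov. Its log2 fold change at 50 nM was -0.20 (95% CI -0.58 to 0.18, adjusted p = 0.309, limma) in Ku and -1.13 (SE 0.12, adjusted p = 1.04e-04) in Cov, and at 250 nM -1.07 (SE 0.154, adjusted p = 7.29e-04) and -1.58 (SE 0.12, adjusted p = 9.44e-06). The call at 50 nM in Cov was lost without either DMSO library (adjusted p = 0.00101 and 0.00151), and that at 250 nM in Ku without any 1 library (highest adjusted p = 0.00656).

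FANCG, which pairs with FANCA in a subcomplex, changed about as much as the median active gene. Its levels were 25.7 and 23.5 FPKM with DMSO, 16.8 and 16.5 FPKM with 50 nM, and 10 and 9.98 FPKM with 250 nM in Ku cells. In Cov cells they were 18.9 and 18.8, 9.42 and 9.27, and 7.07 and 7.2 FPKM. Doses did not overlap. At 50 nM the change in Ku was not called (-0.53, adjusted p = 0.00355, limma) and that in Cov was (-0.94, adjusted p = 5.66e-05). The log2 fold change at 250 nM, -1.22 (SE 0.0857, adjusted p = 3.59e-05, limma) in Ku and -1.29 (SE 0.0852, adjusted p = 5.01e-06) in Cov, was within 0.11 of that of the median active gene, so under the median of ratios it was 0.16 and 0.20, with adjusted p of 0.0762 and 0.0633. FANCG thus served as the reference for ratios within a library, a choice made after its values were seen.

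FANCA was the member whose mean level was not below that of DMSO at 50 nM. In Ku cells it had 11.9 and 9.93 FPKM with DMSO, 18 and 18.6 FPKM with 50 nM and 5.25 and 6.05 FPKM with 250 nM. In Cov cells it had 19.7 and 21.2 FPKM with DMSO, 20.7 and 22.6 FPKM with 50 nM and 9 and 8.98 FPKM with 250 nM. The 50 nM libraries were the highest in Ku, above both DMSO libraries, and overlapped the DMSO libraries in Cov, and at 250 nM all libraries were the lowest.

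The log2 fold change of FANCA at 50 nM in Ku was 0.70 (SE 0.127, 95% CI 0.38 to 1.01), with an adjusted p of 0.0055 (limma) that did not meet the threshold. Only 100 active genes had a higher value. In Cov it was 0.077 (95% CI -0.14 to 0.29, adjusted p = 0.44), and 177 active genes had a higher value. With 1 library left out, the value in Ku ranged from 0.58 to 0.82. Under the median of ratios it was called higher in both lines, at 1.23 (adjusted p = 8.06e-04) in Ku and 1.07 (adjusted p = 7.58e-04) in Cov, where 0.526% and 0.112% of active genes were called higher. Under equal medians it was 1.38 (adjusted p = 0.00101) and 1.26 (adjusted p = 5.97e-04), called in Cov only.

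From 50 to 250 nM, FANCA then fell by 1.54 on the log2 scale in Ku (SE 0.127, adjusted p = 1.69e-04, limma) and by 1.18 in Cov (SE 0.0914, adjusted p = 8.51e-05), with 11.4% and 9.85% of active genes falling further. This call was lost in Ku without either 50 nM or either 250 nM library, with adjusted p of 0.00142 to 0.00197. Against DMSO, FANCA at 250 nM stood at 51.7% in Ku and 44% in Cov, with log2 fold changes of -0.84 (adjusted p = 9.12e-04, lost with any 1 library left out, highest adjusted p = 0.0085) and -1.10 (adjusted p = 1.47e-05), and 0.47 and 0.41 under the median of ratios.

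The ratio of FANCA to FANCG within a library is not changed by dividing a library by 1 factor, as both other scalings do. The deposited values may not differ by 1 factor alone, since the lowest value was 0.0564 FPKM and the commonest 0.0783 FPKM in the first 250 nM library of Ku, while both were 0.118 FPKM in its first DMSO library. This ratio was 46.5% and 42.3% with DMSO, 107% and 113% with 50 nM, and 52.4% and 60.6% with 250 nM in Ku cells. The ratio in Cov cells was 104% and 113%, 219% and 244%, and 127% and 125%. In both lines the 50 nM libraries stood highest and the DMSO libraries lowest, with no overlap. With 2 libraries a dose, an exact test of 1 dose against another cannot reach a p below 0.33, and the order of the doses was not tested. FANCF as a share of FANCG went the other way, from 26.9% and 28.9% with DMSO to 3.72% and 3.78% with 50 nM and 1.3% and 2.48% with 250 nM in Ku cells, and from 25.8% and 26% to 5.45% and 7.48% and to 3.8% and 4.75% in Cov cells.

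The gene ZNF276 lies on the strand opposite to FANCA and overlaps 1655 bases of its exons. Its level in Ku cells was 6.45 and 6.87 FPKM with DMSO, 2.34 and 1.74 FPKM with 50 nM and 1.24 and 2.1 FPKM with 250 nM, and in Cov cells 5.48 and 5.97, 1.96 and 1.87, and 1.61 and 2 FPKM. It was lower at 50 nM than with DMSO in both lines, unlike FANCA. The libraries were made with a stranded kit, but whether the quantification used strand is not given in the sources used here, so reads of such pairs may have been shared, and their part in the FANCA values was not tested. FANCD2OS overlaps FANCD2 in the same way and had at most 0.133 FPKM in any library. AOPEP overlaps 3809 bases of the exons of FANCC, the longest such overlap, and its level was not analysed here.

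The opposite-strand neighbours of FANCL and FANCI were expressed and were lower with THZ1 as well. VRK2, which overlaps 554 bases of FANCL exons, had 29.3 and 26.3 FPKM with DMSO, 18.9 and 17.1 FPKM with 50 nM and 8.49 and 7.89 FPKM with 250 nM in Ku, and 91.1 and 102, 38.2 and 48.2, and 25.2 and 23.4 FPKM in Cov. POLG, which overlaps 1518 bases of FANCI exons, had 11.6 and 11, 8.5 and 9.34, and 3.02 and 3.6 FPKM in Ku, and 31.6 and 32.7, 17.7 and 18.5, and 10.5 and 12.2 FPKM in Cov. Their part in the values of FANCL and FANCI was not tested.

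**Figure D3:**
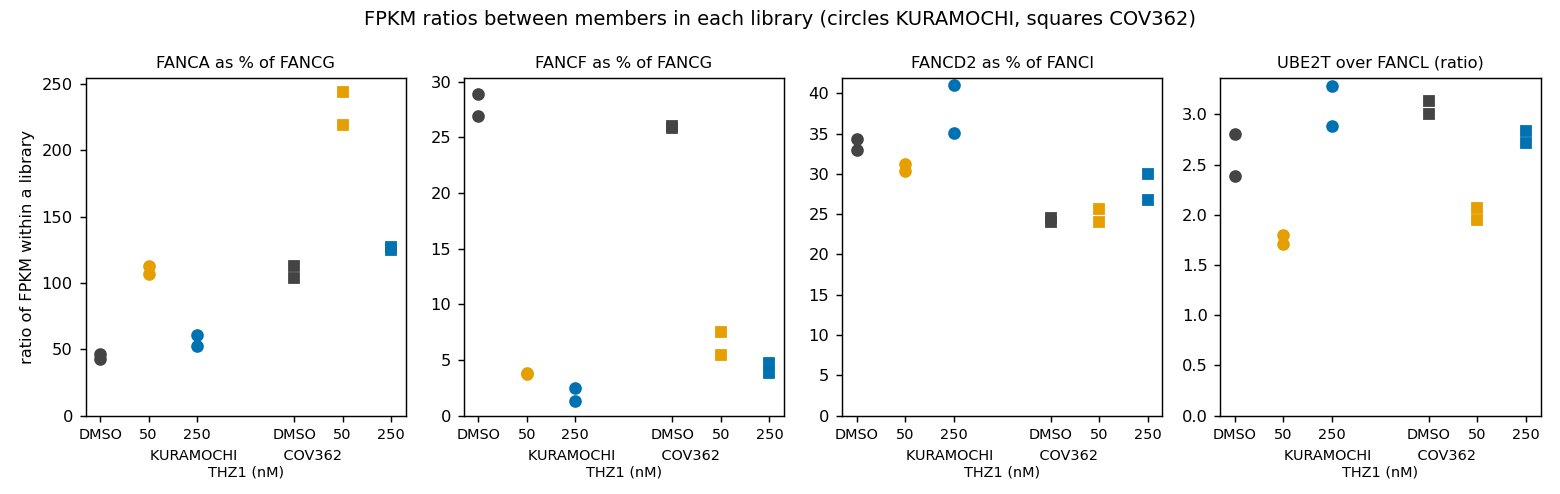
Ratios of FPKM between members within each library, with DMSO, 50 nM and 250 nM THZ1 on the horizontal axis for KURAMOCHI (circles) and COV362 (squares). FANCA as a percentage of FANCG is highest at 50 nM in both lines (107% and 113%, 219% and 244%), FANCF as a percentage of FANCG drops at 50 nM, and the ratio of UBE2T to FANCL is lowest at 50 nM.

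FANCL, the ubiquitin ligase subunit, was lower at both doses in both lines, and was called at both in Cov but only at 250 nM in Ku. In Ku cells its levels were 50.8 and 40.7 FPKM with DMSO, 32.6 and 28 FPKM with 50 nM, and 14.7 and 14.9 FPKM with 250 nM, and in Cov cells 57.4 and 65.4, 26.9 and 29.8, and 15.9 and 14.8 FPKM. No doses overlapped. At 50 nM the log2 fold change was -0.57 (SE 0.127, adjusted p = 0.0112, limma) in Ku, not called, and -1.09 (SE 0.102, adjusted p = 6.49e-05) in Cov. At 250 nM 32.3% of the DMSO level was left in Ku and 25% in Cov, and the log2 fold change was -1.56 (SE 0.127, adjusted p = 6.17e-05, limma) and -1.93 (SE 0.102, adjusted p = 1.99e-06). Under equal medians these values turned to 0.36 and 0.075, where the median active gene stood at 0.34 in Ku and 0.38 in Cov. The step from 50 to 250 nM was -0.98 (adjusted p = 8.18e-04) in Ku and -0.85 (adjusted p = 4.65e-04) in Cov. That call was lost in Ku without either 50 nM or either 250 nM library (highest adjusted p = 0.00621), and in Cov without any library except the first 50 nM replicate (highest adjusted p = 0.00292).

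UBE2T, the ubiquitin-conjugating enzyme that works with FANCL, had most of its fall at the lower dose. Its levels in Ku cells were 121 and 114 FPKM with DMSO, 58.5 and 47.8 FPKM with 50 nM, and 48.3 and 42.8 FPKM with 250 nM, and in Cov cells 172 and 205, 52.5 and 61.8, and 45 and 40.2 FPKM. The treated libraries were all below the DMSO libraries, while the 2 doses overlapped each other in Ku. At 50 nM the log2 fold change was -1.14 (SE 0.114, adjusted p = 7.39e-04, limma) in Ku, lost with any 1 library left out (highest adjusted p = 0.00607), and -1.70 (SE 0.124, adjusted p = 2.92e-05) in Cov. Between the doses it was -0.21 (95% CI -0.49 to 0.065, adjusted p = 0.138) in Ku and -0.41 (adjusted p = 0.0238) in Cov. At 250 nM against DMSO it was -1.35 and -2.12 (adjusted p = 6.77e-05 and 2.98e-06), and 0.087 and -0.52 under the median of ratios.

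The ratio of UBE2T to FANCL, which 1 factor per library does not change, was 2.39 and 2.8 with DMSO, 1.8 and 1.71 with 50 nM, and 3.28 and 2.88 with 250 nM in Ku cells. The Cov libraries had 3 and 3.13, 1.95 and 2.07, and 2.83 and 2.72. It was lowest at 50 nM in both lines, and the 250 nM libraries lay above DMSO in Ku and below DMSO in Cov.

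FANCD2 and FANCI, the substrates, were among the least lowered. FANCD2 had 18.6 and 15.3 FPKM with DMSO, 13.3 and 11.3 FPKM with 50 nM and 10.7 and 11.6 FPKM with 250 nM in Ku cells. It had 19.6 and 21.8, 9.47 and 11.4, and 10.1 and 8.48 FPKM in Cov cells. All treated libraries lay below DMSO, and the 2 doses overlapped in both lines.

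The log2 fold change of FANCD2 at 250 nM was -0.56 (SE 0.133, 95% CI -0.89 to -0.23, adjusted p = 0.00731, limma) in Ku, not called, and -1.08 (SE 0.128, adjusted p = 1.05e-04) in Cov, where the call was lost without the second DMSO library (adjusted p = 0.00137). At 50 nM it was -0.43 (adjusted p = 0.0358) and -0.93 (adjusted p = 3.43e-04, lost without either DMSO library at 0.00173 and 0.00385). The step from 50 to 250 nM was -0.13 (95% CI -0.46 to 0.20, adjusted p = 0.407) in Ku and -0.15 (95% CI -0.46 to 0.15, adjusted p = 0.345) in Cov, while the median active gene moved by -0.62 and -0.41. Under the median of ratios FANCD2 at 250 nM was called higher in Ku (0.82, adjusted p = 2.66e-04), where 11.4% of active genes were, and not in Cov (0.44, adjusted p = 0.00985).

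FANCI had 54.2 and 46.3 FPKM with DMSO, 42.6 and 37.2 FPKM with 50 nM and 30.4 and 28.3 FPKM with 250 nM in Ku cells, and 79.8 and 90.6, 39.5 and 44.5, and 33.6 and 31.8 FPKM in Cov cells. Doses did not overlap in either line. At 250 nM 58.4% of its DMSO level was left in Ku and 38.4% in Cov. The log2 fold change was -0.75 (SE 0.107, adjusted p = 6.94e-04, limma) in Ku, lost without either DMSO or either 250 nM library (highest adjusted p = 0.00566), and -1.35 (SE 0.101, adjusted p = 8.79e-06) in Cov. Under the median of ratios these were 0.67, called higher, and 0.23, not called.

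FANCD2 and FANCI act as a pair, and their ratio stayed between 30.4% and 41% in Ku and between 24% and 30% in Cov. FANCD2 as a share of FANCI was 34.3% and 33% with DMSO, 31.2% and 30.4% with 50 nM, and 35.1% and 41% with 250 nM in Ku cells, and 24.5% and 24%, 24% and 25.6%, and 30% and 26.7% in Cov cells. It was highest at 250 nM in both lines, and overlapped between DMSO and 50 nM in Cov.

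The active genes outside the members whose pattern was most like that of FANCD2 were PLS1, KCNK2, NRD1, ICA1 and LARS. Their root mean square difference from FANCD2 over the 12 libraries, each measured on log2(FPKM + 1) from the mean of the DMSO libraries of its line, was 0.0526 for PLS1 and 0.0654, 0.0661, 0.0692 and 0.0695 for the others. PLS1, which encodes an actin-bundling protein, had log2 fold changes of -0.37 and -0.58 at 50 and 250 nM in Ku and -0.90 and -1.15 in Cov.

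The members were ordered alike in the lines. Across the 10 genes, which are not independent replicates, the log2 fold changes in Ku and Cov had a Pearson's r of 0.92 and a Spearman's rho of 0.77 at 50 nM, 0.84 and 0.83 at 250 nM, and 0.89 and 0.87 from 50 to 250 nM. These values describe libraries that share no samples between the lines. FANCA and FANCF lay at opposite ends at 50 nM in both lines.

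A feature of gene structure went along with that order. Members with more exons in the canonical transcript kept more of their level, with a Spearman's rho between exon number and log2 fold change across 10 genes of 0.80 (50 nM) and 0.81 (250 nM) in Ku and of 0.86 and 0.87 in Cov. From 50 to 250 nM the rho was 0.00 in Ku and -0.03 in Cov. The span of the transcript on the genome gave a lower rho, 0.72 and 0.52 in Ku and 0.38 and 0.35 in Cov, as did the length of the transcript, 0.45 and 0.35 in Ku and 0.52 and 0.56 in Cov. Against DMSO exon number thus had the highest rho of the 3 features computed. From 50 to 250 nM the rho with span was -0.31 in Ku and -0.49 in Cov, larger in size than that with exon number, and the rho with transcript length was -0.14 and 0.01. Over all genes the relation was weak: across the 12471 active genes (87.5%) with a canonical transcript of a matching symbol, the rho with exon number was 0.09 and 0.07 in Ku and -0.04 and -0.00 in Cov for the doses in turn. The rho with span over these genes was 0.10 and 0.01 in Ku and -0.07 and -0.10 in Cov. The 347 single-exon genes among them had a median log2 fold change of -1.10 at 250 nM in Ku, near the -1.13 of all matched genes, while FANCF, the single-exon member, had -2.72. In Cov the medians were -1.14 and -1.34, and FANCF had -2.17. At 50 nM the single-exon genes had a median of -0.59 against -0.40 in Ku, lower than all matched genes, and of -0.83 against -0.86 in Cov. The 288 genes with 38 or more exons, the range of FANCA, FANCD2 and FANCI, were less lowered than all matched genes, with medians of -0.28 against -0.40 (50 nM) and -0.88 against -1.13 (250 nM) in Ku, and -0.80 against -0.86 and -1.15 against -1.34 in Cov. The difference between members and other genes in this relation was not tested.

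**Figure D4:**
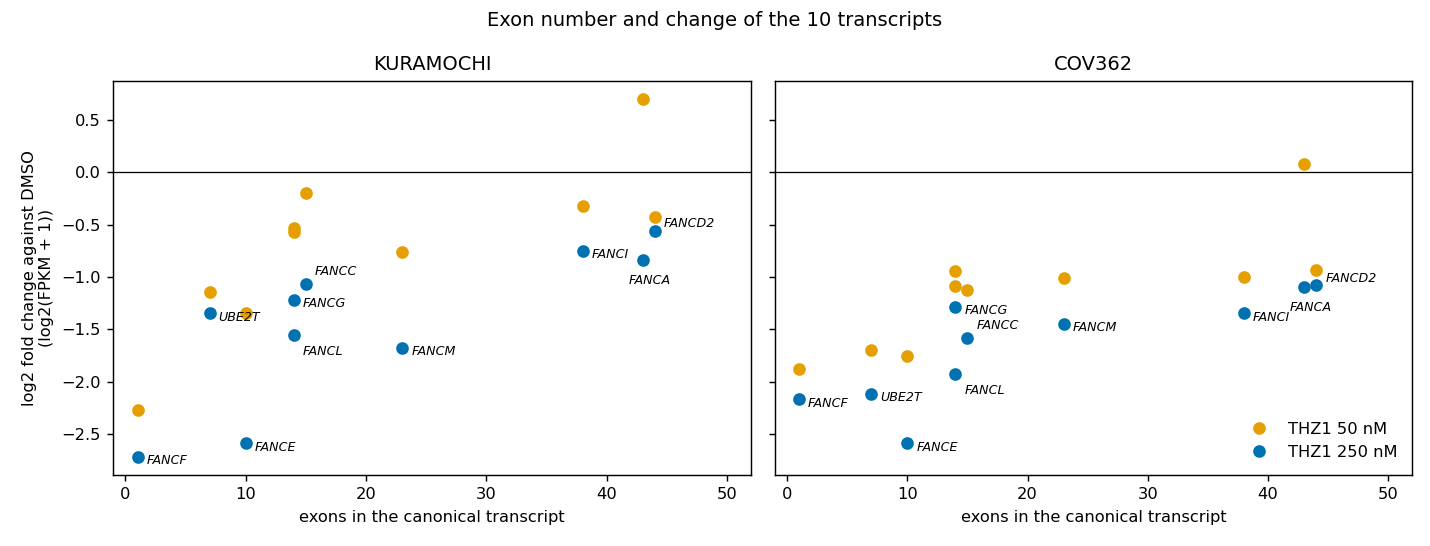
Log2 fold change against DMSO on the spike-in scale, at 50 nM and 250 nM THZ1, against the number of exons in the canonical transcript for each of the 10 genes, in KURAMOCHI (left) and COV362 (right). FANCF with 1 exon lies low and FANCA and FANCD2 with 43 and 44 exons lie high, with rho of 0.80 and 0.81 in KURAMOCHI and 0.86 and 0.87 in COV362 over these 10 genes.

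The rest of the pathway was followed through 25 other genes, all found in the tables and all active, 5 of them under older symbols. On the spike-in scale 24 of 25 were called lower at 250 nM in each line, beside 68.6% of active genes in Ku and 84% in Cov, and 0 were called higher by limma, with 0 above 0 at an unadjusted p under 0.05. At 50 nM 8 were called lower in Ku and 24 in Cov, beside 11.3% and 70.5% of active genes. Their median log2 fold change at 250 nM was -1.80 in Ku and -1.84 in Cov, beside -1.28 and -1.52 for the members. Under the median of ratios 7 (Ku) and 9 (Cov) of the 25 were called lower at 250 nM, beside 19.3% and 18.9% of active genes, and 0 higher in either line, beside 11.4% and 8.73%. Under equal medians 5 and 7 were called lower, beside 11.8% and 11.4%, and 3 and 4 higher, beside 27.5% and 26.7%. With 1 library left out, the count at 50 nM was 0 or 1 in Ku and 14 to 24 in Cov, where the 14 came without the second DMSO library.

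By role, the other core complex subunits were called lower in 2 of 3 cases in each line at 250 nM. The exceptions, named after their values were seen, were FANCB in Ku (-1.05, SE 0.202, adjusted p = 0.00274, limma) and C1orf86, the older symbol of FAAP20, in Cov (-0.62, SE 0.166, adjusted p = 0.00861). The partners of FANCM were called lower in 3 of 3 cases, as were the nuclease scaffold and nucleases in 6 of 6, recombination genes in 8 of 8 and translesion synthesis genes in 3 of 3, in both lines on the spike-in scale, where 68.6% (Ku) and 84% (Cov) of all active genes were called lower. Groups this small do not set a role apart from those shares. At 50 nM in Ku, the calls were 4 of the 6 nuclease genes, 3 of the 8 recombination genes and 1 partner of FANCM, where 11.3% of active genes were called lower. These 8 calls fell to 0 or 1 with any 1 library left out and to 0 when only the DMSO and 50 nM libraries were fitted.

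USP1, the deubiquitinase that removes ubiquitin from FANCD2, fell at both doses in Cov and was called lower only at the higher dose in Ku. Its level was 99.3 and 105 FPKM with DMSO, 70.5 and 83.9 FPKM with 50 nM, and 16.3 and 17.2 FPKM with 250 nM in Ku cells, and 113 and 128, 53.2 and 65.5, and 15.1 and 16.5 FPKM in Cov cells. Doses did not overlap, and the mean at 250 nM was 16.4% of DMSO in Ku and 13.1% in Cov. The log2 fold change at 50 nM was -0.40 (SE 0.0966, adjusted p = 0.0147, limma) in Ku, where the median active gene also had -0.40, and -1.01 (SE 0.122, adjusted p = 1.81e-04) in Cov, where it had -0.85. The step from 50 to 250 nM was -2.13 (SE 0.0966, adjusted p = 5.14e-05, limma) in Ku and -1.84 (SE 0.122, adjusted p = 5.78e-05) in Cov, where FANCD2, its substrate, had -0.13 and -0.15. WDR48, the cofactor that activates USP1, had a log2 fold change of -1.80 (adjusted p = 1.52e-04) in Ku and -2.09 (adjusted p = 3.13e-06) in Cov at 250 nM, with 22.4% and 20.7% of its DMSO level left. Its call was lost under both other scalings in both lines, at -0.63 (adjusted p = 0.00783) and -0.63 (adjusted p = 0.00172) under the median of ratios and -0.16 (adjusted p = 0.259) and -0.19 (adjusted p = 0.0807) under equal medians. USP1 at 250 nM lost its call under equal medians in Ku (-0.61, adjusted p = 0.0025) and kept it in the other 3 of these cases.

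Among the 25 genes the lowest log2 fold changes at 250 nM were those of C19orf40, PALB2 and RFWD3 in Ku and RFWD3, PALB2 and USP1 in Cov. C19orf40, the older symbol of the FANCM partner FAAP24, went from 12.5 and 13.7 FPKM with DMSO to 0.469 and 0.483 FPKM in Ku, a log2 fold change of -3.25 (SE 0.12, adjusted p = 7.58e-06, limma). FANCM and FAAP24, which bind each other at the stalled fork, were thus both below 1 FPKM at 250 nM, with FAAP24 at 0.577 and 0.686 FPKM in Cov. PALB2, which brings recombination proteins together, went from 8.71 and 11 FPKM to 0.448 and 0.628 FPKM in Ku and from 10.4 and 11.7 FPKM to 0.349 and 0.366 FPKM in Cov, with log2 fold changes of -2.81 and -3.15 (adjusted p = 1.87e-05 and 9.17e-07). RFWD3, a ubiquitin ligase that acts on proteins at stalled forks, kept 12.8% of its DMSO level in Ku and 8.25% in Cov, with log2 fold changes of -2.63 and -3.38 (adjusted p = 1.81e-05 and 8.22e-07).

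**Figure D5:**
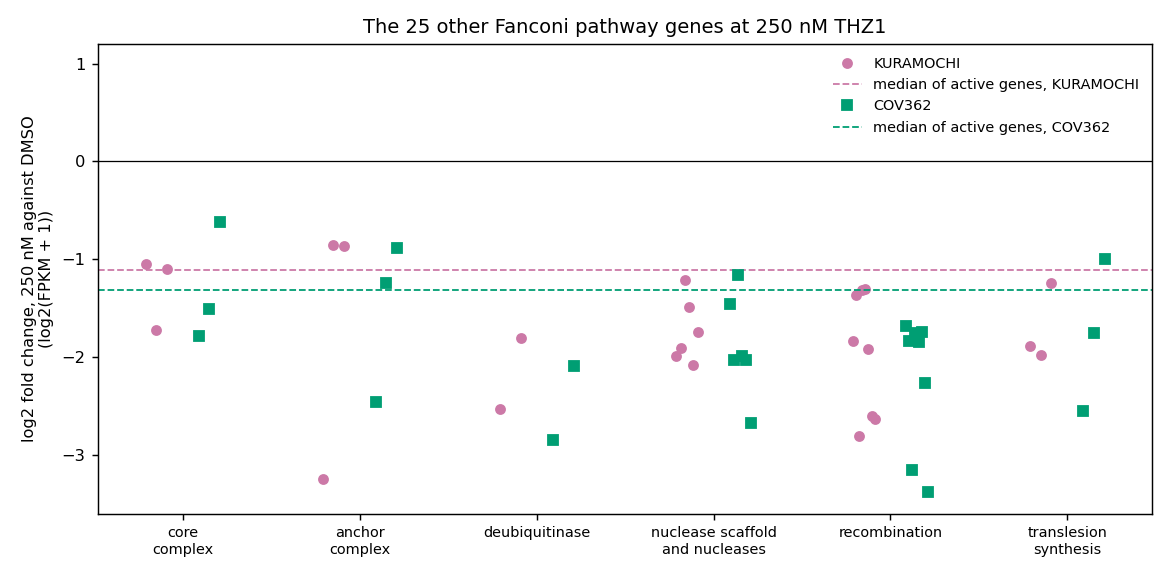
Log2 fold change at 250 nM THZ1 against DMSO of the 25 other Fanconi pathway genes, 1 point per gene and line, grouped by role, on the spike-in scale. All points lie below 0, and most lie below the dashed lines at the medians of active genes, -1.11 in KURAMOCHI and -1.31 in COV362.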

How the data were processed

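The authors made polyadenylated, stranded RNA libraries from RNA normalized by cell count with ERCC spike-ins, read them as single 75 bp reads, and aligned them to hg19 with HiSat. The deposited FPKM values came from cuffquant and cuffnorm, normalized by the authors to the spike-ins, with 1 table per line (versions are not given in the sources used here). They are not counts, so edgeR, which the study names, was not used, and depth is unknown.

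Each line was fitted apart, with 3 groups of 2 libraries, on log2(FPKM + 1) of 14251 active genes with limma 3.58.1 (lmFit, eBayes with trend; R 4.3.3), two-sided. P-values were adjusted by Benjamini-Hochberg over the active genes. Replicates are labelled biological duplicates. The members, gene lists and tests were chosen with earlier results of these data known. Named were all members, USP1, WDR48, the 3 lowest of the 25 other pathway genes per line at 250 nM, any not called in either line at 250 nM or called against the list's direction (there was none of these), and the 5 genes most like FANCD2. Alternatives were a pseudocount of 0.1, no minimum FPKM, median-of-ratios and equal median scaling, the replicate number as a block, only the 2 groups compared, other thresholds, and each library left out. In simulated Ku data at 250 nM, of 100 genes lowered by a true log2 change of -1, 2 were called at an adjusted p under 0.001 and 70 at 0.05; of 100 at -2, 26 and 91; of 14051 unchanged, 2 and 7. Most genes were unchanged in that simulation, whereas 68.6% of active genes were called lower in the Ku data at 250 nM. The adjustment for many tests differs between these settings, so the simulated shares do not give the sensitivity of the calls above. Exons came from GENCODE on GRCh37 and promoters from RefSeq on GRCh38.p14 (Python 3.11.15, pandas 2.3.3).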

Additional observations from a re-analysis of the deposited data

How the results depend on the processing

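The direction of log2 fold changes was turned by the other scalings and by none of the other alternatives. Under equal medians the median active gene itself stood above 0, at 0.12 to 0.38, so small turned values there do not exceed it. With equal median scaling the turned values were 0.43 for FANCC, 0.14 for FANCG, 0.11 for FANCL, 0.24 for FANCD2 and 0.37 for FANCI (50 nM against DMSO in Ku), 0.97 for FANCA, 0.62 for FANCC, 0.67 for FANCG, 0.36 for FANCL, 0.61 for UBE2T, 1.33 for FANCD2 and 1.19 for FANCI (250 nM against DMSO in Ku), 0.19 for FANCC, 0.52 for FANCG, 0.24 for FANCL, 1.05 for UBE2T, 1.10 for FANCD2 and 0.82 for FANCI (250 nM against 50 nM in Ku). The others with equal median scaling were 0.20 for FANCG, 0.11 for FANCL, 0.22 for FANCD2 and 0.20 for FANCI (50 nM against DMSO in Cov), 0.86 for FANCA, 0.27 for FANCC, 0.65 for FANCG, 0.075 for FANCL, 0.89 for FANCD2 and 0.69 for FANCI (250 nM against DMSO in Cov), 0.29 for FANCC, 0.45 for FANCG, 0.43 for UBE2T, 0.66 for FANCD2 and 0.49 for FANCI (250 nM against 50 nM in Cov). With median-of-ratios scaling the turned values were 0.30 for FANCC, 6.2e-05 for FANCG, 0.10 for FANCD2 and 0.22 for FANCI (50 nM against DMSO in Ku), 0.47 for FANCA, 0.14 for FANCC, 0.16 for FANCG, 0.087 for UBE2T, 0.82 for FANCD2 and 0.67 for FANCI (250 nM against DMSO in Ku), 0.16 for FANCG, 0.67 for UBE2T, 0.73 for FANCD2 and 0.45 for FANCI (250 nM against 50 nM in Ku). The others with median-of-ratios scaling were 0.017 for FANCG, 0.037 for FANCD2 and 0.011 for FANCI (50 nM against DMSO in Cov), 0.41 for FANCA, 0.20 for FANCG, 0.44 for FANCD2 and 0.23 for FANCI (250 nM against DMSO in Cov), 0.044 for FANCC, 0.19 for FANCG, 0.16 for UBE2T, 0.40 for FANCD2 and 0.22 for FANCI (250 nM against 50 nM in Cov). Members called lower numbered, in the order 50 nM and 250 nM against DMSO and 250 nM against 50 nM, 0, 3 and 0 in Ku and 0, 2 and 0 in Cov with equal medians, and 1, 3 and 0 and 0, 3 and 1 with the median of ratios. Members called higher numbered 4 at 250 nM in either line, 1 from 50 nM to 250 nM in Ku and 1 at 50 nM in Cov with equal medians, and 1 at 50 nM in either line, 2 at 250 nM in Ku and 1 from 50 nM to 250 nM in Ku with the median of ratios. Other pathway genes called lower numbered 0, 5 and 2 in Ku and 0, 7 and 2 in Cov with equal medians, and 3, 7 and 3 and 1, 9 and 3 with the median of ratios. With no minimum FPKM, which puts more genes under the adjustment, 0 members and 0 other pathway genes were called at 50 nM in Ku, 0 and 3 from 50 nM to 250 nM in Ku, and 1 and 3 in Cov. With only the 2 groups compared, 0 and 0 were called at 50 nM in Ku, with fewer libraries behind the spread. At an adjusted p under 0.05, 6 members were called lower and 1 higher at 50 nM in Ku, and other pathway genes numbered 20 there and 15 and 10 from 50 nM to 250 nM in Ku and Cov. With a log2 fold change beyond 1, 2 and 1 members were called from 50 nM to 250 nM. A pseudocount of 0.1 made the changes of low genes larger, with -4.62 for FANCF and -2.84 for FANCM at 250 nM in Ku. FANCM was then also called lower from 50 nM to 250 nM in Ku (-1.81, adjusted p = 4.02e-04, limma). FANCE lost its call at 50 nM in Ku (-1.59, adjusted p = 0.0026, limma).

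Same-numbered replicates did not deviate together (correlations of -0.00871 to 3.45e-04 in Ku and -0.0703 to 0.0282 in Cov), so the numbers were not taken as pairs. With the replicate block, the calls from 50 nM to 250 nM in Cov were 1 member and 2 other pathway genes, and 6 member values lost their call. With 1 library left out, members called lower ranged from 0 to 1, 6 to 7 and 0 to 3 in Ku and 7 to 9, 9 to 10 and 1 to 3 in Cov, other pathway genes from 0 to 1, 18 to 24, 1 to 8, 14 to 24, 23 to 24 and 3 to 8, and members called higher from 0 to 0. Of the 840 member values under these alternatives, 641 kept direction and side of the threshold. No count of reads was available, so the depth behind low values such as those of FANCF and FANCM at 250 nM is unknown.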
